A study of Arabidopsis thaliana with 6 samples.

Results

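The KRP and SIAMESE genes of Arabidopsis thaliana encode small proteins that bind cyclin-dependent kinases and hold them inactive. The group was defined by locus: KRP1 to KRP7, SIM, LGO (also called SMR1) and SMR4, 10 of the 36793 loci measured. Their transcripts were read in callus, a mass of dividing cells that forms on cut tissue kept on a medium with auxin and cytokinin. The callus came from leaves cut from 2-week-old seedlings of Col-0, the standard laboratory strain, with no mutation or transgene named in the labels. Bulk RNA-seq libraries were made from callus taken on day 12 and on day 7 of culture, with 3 biological replicates on each day, and all 6 had the same genotype and medium. No uncut leaf was analysed here, so day 7 callus is the only point of comparison. The question was which of these inhibitors differed between older and younger callus.

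A cyclin-dependent kinase works only with a cyclin partner. D-type cyclins act with CDKA;1 at the entry into DNA replication, and A- and B-type cyclins act later, up to mitosis. KRP proteins share a short carboxy-terminal stretch with the Kip inhibitors of animals and bind CDKA;1 together with D-type cyclins. SIAMESE-related proteins are a plant family best known for stopping mitosis while DNA replication goes on, a cycle called endoreduplication that gives large polyploid cells. In plants both families are set by transcription and by protein breakdown. RNA counts show the level of the transcripts, and neither the rate of transcription nor the level of protein.

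Of the 10 inhibitor genes, KRP1 and KRP2 rose and KRP3 fell on day 12 relative to day 7. KRP1 was 3.72-fold higher on day 12, KRP2 was 1.66-fold higher and KRP3 was 2.05-fold lower by the fitted values. KRP4, the most abundant of the group on both days, stood at 37.3 ± 1.99 CPM on day 12 and 39.2 ± 2.74 CPM on day 7 (SD, n = 3 each). CPM is the count of a gene scaled to the size of its library with TMM factors. All 10 genes passed the filter on low counts, and the lowest count of any of them in a library was 5. Calls were made with edgeR's quasi-likelihood test at a Benjamini-Hochberg adjusted p of 0.05 over 18364 genes. The 3 calls are 30% of the group, against 25.1% of all genes tested, so the group as a whole was called about as often as any gene. With the replicate number kept as a block the count was also 3, against 28.1% of all genes, and by limma on log2(TPM + 1) it was 1, SIM, against 5.76%. By direction, 12.7% of all genes tested were higher and 12.5% lower. The median log2 change of the 10 genes was 0.07, against -0.0015 over all genes tested. The 3 libraries of one day stood wholly apart from those of the other for 7 of the 10 genes, 4 higher and 3 lower, against 43.7% of all genes tested.

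The libraries held 4927953 to 10426265 counts on day 12 and 7412972 to 10746277 on day 7. Nuclear rRNA loci took 4.15% to 20.3% of the TPM of a day 12 library and 1.67% to 30.7% of a day 7 library. TPM values are scaled by gene length and library and allow levels of different genes to be compared, but a library rich in rRNA has all its other TPM lowered. Ratios, shares and the order of genes are therefore taken within libraries. Sums and means of TPM still carry this effect between libraries and days. Of these only the sums of the inhibitor families are also given rescaled without rRNA and organelle loci, and the marker sums are not. Callus from leaves is known to take on a root-like state, and 7 of 9 listed regulators of that state passed the filter on low counts. LBD29 did not, with 3, 1 and 0 counts on day 12 against 24, 20 and 7 on day 7. LBD17 did not either, with 0, 10 and 3 counts on day 12 against 9, 6 and 5 on day 7. PLT1, a root stem cell regulator picked for that role, had 204, 165 and 253 CPM on day 12 and 139, 157 and 182 CPM on day 7. Among the 7 tested, PLT1 alone had a fitted rise, and the list median was -0.25. The summed TPM of 9 root-type callus markers was 289.5 to 330.3 on day 12 and 264.5 to 348.9 on day 7. SCR and LBD16 were called lower among the 7 tested, against 12.5% of all genes tested. Neither was called without day 7 replicate 1 (lowest adjusted p in the list 0.0606), and in the fit blocked by replicate number PLT1 was called higher as well (edgeR adjusted p = 0.0406). The summed TPM of 6 leaf mesophyll markers was 23.3 to 40.8 on day 12 and 68.9 to 86.4 on day 7. All 5 tested mesophyll genes fell (3 of 5 without day 12 replicate 2), and the sixth, CA1, had at most 4 counts in any library. The lower level of leaf marker RNA moved with day, as did the inhibitor calls, and its part in them was not tested. In bulk libraries fewer cells of a type and less RNA per cell cannot be told apart.

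**Figure D1:**
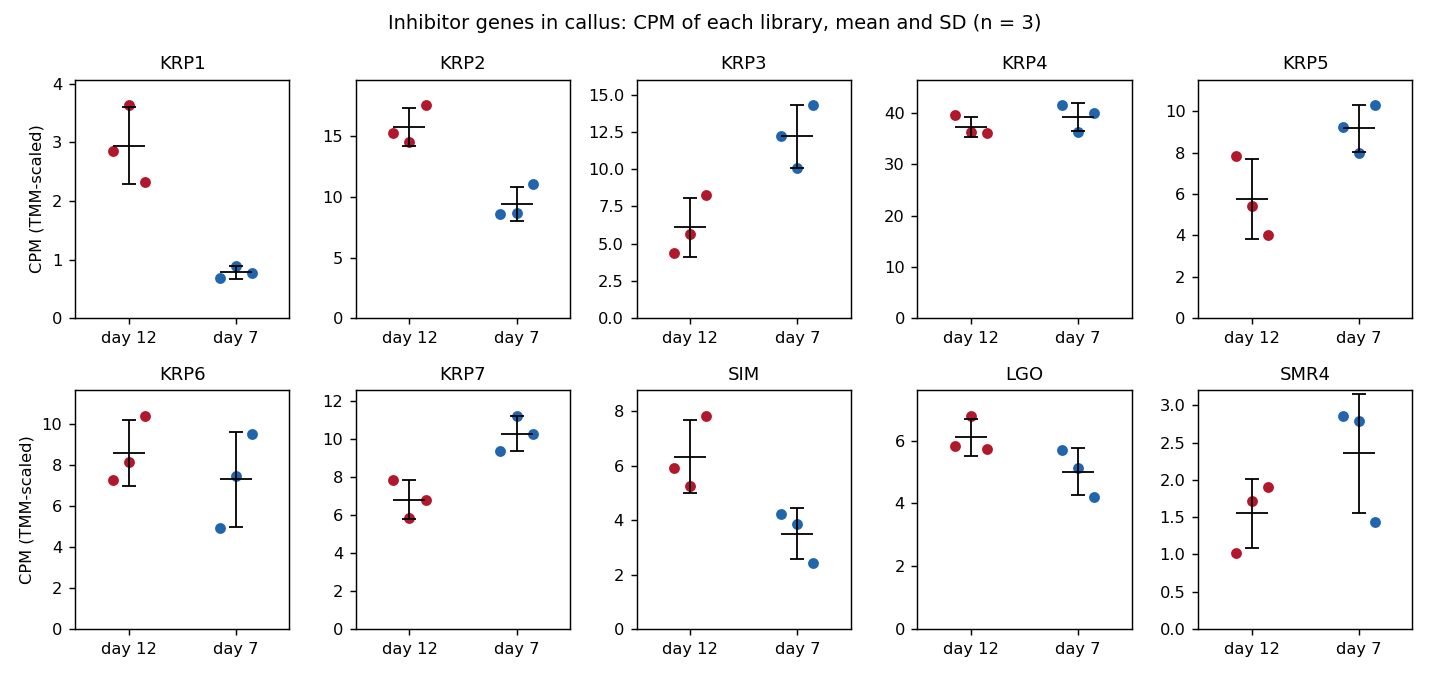
CPM of the 10 inhibitor genes (vertical axis, from 0, a scale of its own in each panel) in the 3 libraries of day 12 (red) and of day 7 (blue). Points are libraries, the long dash is the mean and the bar the SD. KRP1, KRP2 and SIM stand wholly higher on day 12, LGO by the narrowest margin, and KRP3, KRP5 and KRP7 wholly lower.

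KRP1 (AT2G23430), listed in the reference as ICK1, was the first plant inhibitor shown to bind CDKA;1 and is known to be induced by abscisic acid. It had 2.86, 3.63 and 2.33 CPM in day 12 replicates 1, 2 and 3, against 0.680, 0.898 and 0.775 CPM in day 7 replicates 1, 2 and 3. Every day 12 library thus stood above every day 7 library. The lowest day 12 value, in replicate 3, rests on 11 counts, and the highest day 7 value, in replicate 2, on 10 counts. The log2 change was 1.90 ± 0.38 (SE, adjusted p = 0.00882). These values rest on few reads, 77 counts over the day 12 libraries and 22 over the day 7 libraries. The ratio of the pooled counts, corrected for library totals, was 3.74 with a 95% counting interval of 2.31 to 6.32, which covers counting error only. KRP1 was called without any one of the 6 libraries, with adjusted p of 0.0153 to 0.0418. It was not called by limma on log2(TPM + 1), where the change was 1.11 (adjusted p = 0.0742), or on log2(TPM + 0.1) (0.0781). By limma on TPM rescaled without rRNA and organelle loci KRP1 was called (adjusted p = 0.0213).

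KRP2 (AT3G50630) is known in roots as an auxin-repressed inhibitor that restrains the founder cell divisions of lateral roots. It had 15.3, 14.5 and 17.6 CPM in day 12 replicates 1, 2 and 3, against 8.57, 8.71 and 11.1 CPM in the day 7 replicates. The days did not overlap, and the smallest gap lay between day 12 replicate 2 and day 7 replicate 3. The log2 change was 0.73 ± 0.17 (SE, adjusted p = 0.0146). Its direction was kept without each library, with log2 changes of 0.66 to 0.86. The adjusted p reached 0.0548 without day 7 replicate 1, 0.0551 without day 7 replicate 2 and 0.0539 on log2(TPM + 1). By limma on TPM rescaled without rRNA and organelle loci it was 0.0105.

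KRP3 (AT5G48820), an inhibitor known from dividing tissue, went the other way. It had 4.39, 5.64 and 8.26 CPM in day 12 replicates 1, 2 and 3, against 12.2, 10.1 and 14.3 CPM in the day 7 replicates. The days did not overlap, but the day 12 libraries were spread, replicate 3 standing nearer to day 7 replicate 2 than to any library of its own day. The log2 change was -1.04 ± 0.26 (SE, adjusted p = 0.0195). The call did not survive the removal of day 12 replicate 1 (-0.83, adjusted p = 0.0634), of day 7 replicate 3 (-0.90, 0.0720) or of day 7 replicate 1 (-1.03, 0.0594). By limma the adjusted p was 0.0573 on log2(TPM + 1) and 0.0331 on TPM rescaled without rRNA and organelle loci.

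KRP4 (AT2G32710) is known in the shoot meristem as a measure of cell size, its protein being shared out with the chromosomes at division. It had 39.6, 36.3 and 36.0 CPM on day 12 and 41.5, 36.2 and 40.1 CPM on day 7, and the days overlapped almost completely. Its log2 change of -0.07 ± 0.10 (SE, adjusted p = 0.654) had the smallest standard error of the group. KRP4 overlaps CB5-B (AT2G32720) on the opposite strand. CB5-B had 33.2 ± 1.89 CPM on day 12 and 40.6 ± 3.57 CPM on day 7 (SD, n = 3 each). No source used here gives the strand setting of the counting, so reads of that overlap cannot be told apart.

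The remaining KRP genes were not called. KRP7 (AT1G49620) came closest, with 7.86, 5.83 and 6.78 CPM on day 12 against 9.39, 11.2 and 10.3 CPM on day 7. The days did not overlap, and the log2 change was -0.60 ± 0.20 (SE, adjusted p = 0.0522). KRP7 did pass by limma-voom (0.0426), with upper-quartile factors (0.0441), without TMM factors (0.0415) and on TPM rescaled without rRNA and organelle loci (0.0198). KRP5 (AT3G24810), known from roots and from the elongating hypocotyl, had 7.86, 5.45 and 4.02 CPM on day 12 against 9.25, 7.99 and 10.3 CPM on day 7. The gap between the days was narrow, 7.86 to 7.99 CPM, and the log2 change was -0.64 ± 0.26 (SE, adjusted p = 0.106). KRP6 (AT3G19150), whose protein is removed in developing pollen so that the germ cell can divide, had 7.24, 8.12 and 10.4 CPM on day 12 against 4.90, 7.45 and 9.52 CPM on day 7. The days overlapped, and the log2 change of 0.21 ± 0.27 (SE, adjusted p = 0.609) was -0.0012 without day 7 replicate 1, the library with the lowest value.

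Among the SIAMESE-type genes, SIM (AT5G04470) is the founder of the family, and its loss gives trichomes of several cells in place of a single polyploid cell. SIM had 5.92, 5.25 and 7.83 CPM on day 12 against 4.22, 3.86 and 2.44 CPM on day 7. The days did not overlap, and the log2 change of 0.84 ± 0.30 had a larger error than that of KRP2 (SE, adjusted p = 0.0713). By limma SIM passed on log2(TPM + 1) (adjusted p = 0.0498), on log2(TPM + 0.1) (0.0464) and on TPM rescaled without rRNA and organelle loci (0.0321). Markers that define trichomes were at or near 0: GL1, GL2 and TRY had 0 to 2 counts in each library. The other 2 genes of the trichome list, GL3 and TTG1, are also used outside trichomes and were not called (adjusted p = 0.124 and 0.833). The summed TPM of all 5 was 27.0 to 43.4 on day 12 and 25.2 to 35.6 on day 7.

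LGO (AT3G10525) is needed for the giant endoreduplicated cells of the sepal epidermis. It had 5.82, 6.78 and 5.72 CPM on day 12 against 5.71, 5.12 and 4.21 CPM on day 7. The days were apart only by the difference between 5.72 and 5.71 CPM, and the log2 change was 0.29 ± 0.24 (SE, adjusted p = 0.401). SMR4 (AT5G02220), which slows the cell cycle in the stomatal lineage, had 1.02, 1.72 and 1.91 CPM on day 12 against 2.86, 2.78 and 1.44 CPM on day 7. The days overlapped through day 7 replicate 3, and with 37 counts on day 12 and 65 on day 7 the log2 change was -0.64 ± 0.43 (SE, adjusted p = 0.310). SIM and LGO each overlap a gene on the opposite strand, AT5G04475 with 5 counts on day 12 and 5 on day 7, and AT3G10527 with 1 count on day 12 and 0 on day 7. Runs of 50 exon bases of the 10 inhibitor genes were looked up in the TAIR10.1 genome on both strands, and 0 of them occurred a second time.

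**Figure D2:**
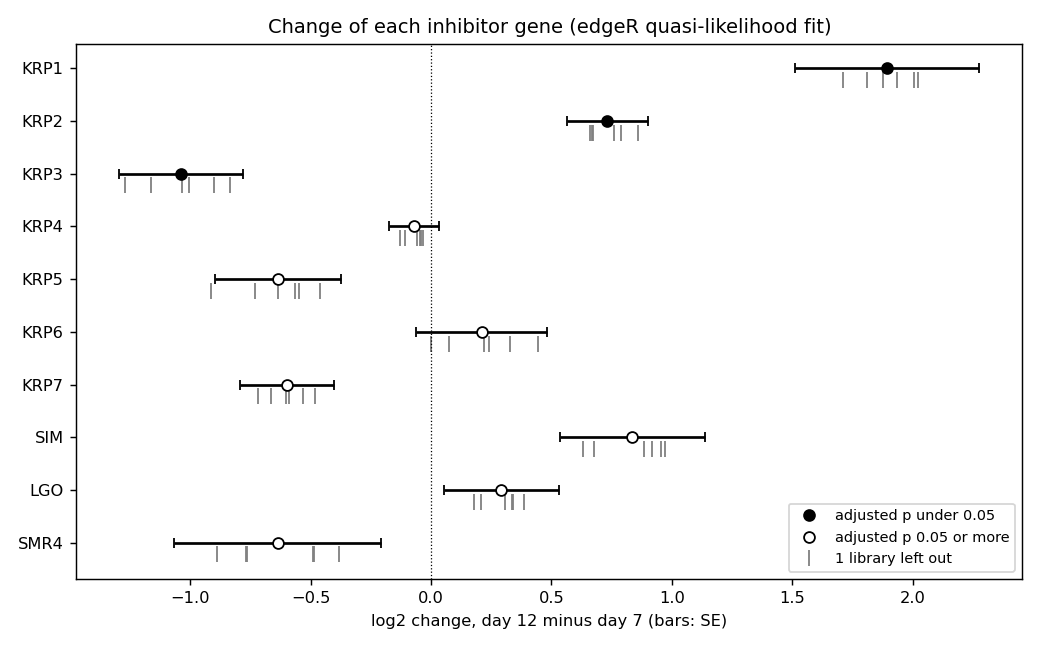
Fitted log2 change of each inhibitor gene, day 12 minus day 7 (horizontal axis), with its SE as the bar. Filled circles passed an adjusted p of 0.05, open circles did not, and grey ticks are the same change with 1 library left out. KRP1 stands alone at 1.90, KRP2 and SIM lie near 0.8, and KRP3 lies at -1.04.

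The sum of the KRP transcripts overlapped between the days, whereas the shares of KRP1, KRP2, KRP3 and KRP7 in it did not. The 7 KRP genes together had 93.2 ± 5.47 TPM on day 12 and 96.8 ± 18.3 TPM on day 7 (SD, n = 3 each). After rescaling without rRNA and organelle loci the sums were 108 ± 7.45 TPM on day 12 and 114 ± 7.88 TPM on day 7. KRP2 made up 21.4%, 21.2% and 24.6% of that sum in day 12 replicates 1, 2 and 3, against 12.0%, 12.1% and 12.3% in the day 7 replicates. The day 7 values of KRP2 were nearly identical, and the day 12 values all lay well above them. KRP1 took 3.33%, 4.90% and 2.50% on day 12, against 0.886%, 1.22% and 0.904% on day 7, and so remained a small part even where it was highest. KRP3 took 5.69%, 7.93% and 11.1% on day 12, against 15.4%, 13.7% and 16.5% on day 7. KRP7 took 11.9%, 9.62% and 9.72% on day 12, against 15.9%, 16.8% and 16.4% on day 7. Both shares were lower in every day 12 library than in any day 7 library. The CPM of KRP1, KRP2, KRP3 and KRP7 also stood wholly apart between the days, as did 43.7% of all genes tested. The separation of their shares is therefore no separate evidence.

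KRP4 stayed the largest part, with 36.3%, 36.1% and 32.6% of the KRP sum on day 12 and 35.1%, 33.9% and 30.5% on day 7. The share of KRP6 overlapped between the days, with means of 10.6% on day 12 and 8.54% on day 7. The share of KRP5 also overlapped by TPM, with means of 9.76% on day 12 and 13.6% on day 7. As a share of summed counts KRP5 did not overlap, with 9.23%, 6.85% and 4.72% on day 12 against 10.7%, 9.68% and 10.7% on day 7. Within the library, the ratio of KRP2 to KRP3 TPM was 3.76, 2.67 and 2.22 on day 12, against 0.780, 0.884 and 0.747 on day 7. KRP3 thus exceeded KRP2 in each day 7 library, and KRP2 exceeded KRP3 in each day 12 library. As KRP2 was called higher and KRP3 lower, the separation of their ratio between the days is no separate evidence. With 3 libraries against 3 an exact two-sided permutation test cannot give a p below 0.10, so shares and ratios are given as values with no test.

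SIM, LGO and SMR4 together had 27.3 ± 2.01 TPM on day 12 and 19.0 ± 4.11 TPM on day 7 (SD, n = 3 each), and the days did not overlap. They did not overlap after rescaling without rRNA and organelle loci either, with 31.8 ± 3.18 TPM on day 12 and 22.6 ± 4.68 TPM on day 7. As summed CPM they did overlap, with 12.75, 13.76 and 15.46 on day 12 against 12.79, 11.76 and 8.08 on day 7. SIM supplied 49.3%, 39.9% and 52.9% of the summed TPM on day 12, against 35.2%, 36.3% and 33.0% on day 7. SMR4 supplied 5.83%, 12.5% and 8.13% on day 12, against 20.1%, 19.1% and 13.3% on day 7. The share of LGO overlapped, with means of 43.8% on day 12 and 47.7% on day 7. SIM thus had a higher share in every day 12 library than in any day 7 library, and SMR4 a lower one. As SIM also stood wholly higher by CPM, these shares of the same sum are no separate evidence.

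**Figure D3:**
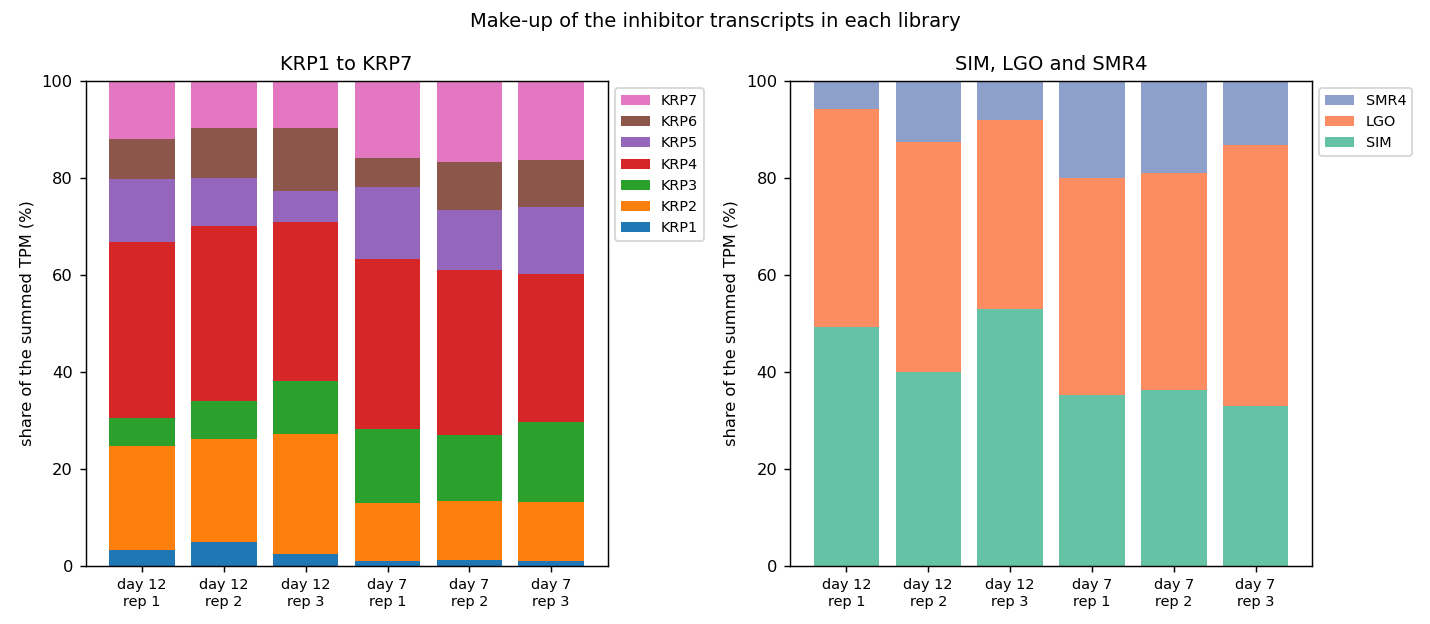
Share of each gene in the summed TPM (vertical axis, percent) of KRP1 to KRP7 (left) and of SIM, LGO and SMR4 (right), in day 12 and then day 7 libraries. The KRP2 band takes over 21% on day 12 and about 12% on day 7, the KRP3 and KRP7 bands narrow on day 12, and the SIM band is widest on day 12.

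The order of the TPM levels also differed between the days. On day 12 KRP4 led with 32.7 ± 3.79 TPM, followed by KRP2 with 20.8 ± 0.586 TPM, each above the next gene in 3 of 3 libraries. Behind them came SIM (12.9 ± 1.37 TPM), LGO (12.0 ± 1.79), KRP6 (9.79 ± 1.55), KRP7 (9.74 ± 1.63), KRP5 (9.21 ± 3.45) and KRP3 (7.58 ± 2.05). Neighbours among these 6 changed places in at least 1 library, so the order of neighbours is not resolved. Of the pairs further apart, SIM stood above KRP6, KRP7 and KRP3, and LGO and KRP6 stood above KRP3, in 3 of 3 libraries. KRP1 (3.36 ± 1.26 TPM) lay below KRP3 in 3 of 3 libraries, and its order with SMR4 (2.45 ± 1.115 TPM) varied.

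On day 7 KRP4 also led, with 31.9 ± 4.84 TPM, but the next places belonged to KRP7 (15.8 ± 3.33 TPM), KRP3 (14.7 ± 3.11), KRP5 (13.1 ± 1.89) and KRP2 (11.8 ± 2.34). KRP7 and KRP3 changed places between libraries. KRP3 stood above KRP5, and KRP5 above KRP2, in 3 of 3 libraries, although their means lay within an SD of each other. Below them were LGO (8.96 ± 1.31 TPM), KRP6 (8.53 ± 3.44) and SIM (6.67 ± 1.74). KRP6 changed places with LGO and with SIM between libraries, while LGO stood above SIM in 3 of 3 libraries. Then came SMR4 (3.39 ± 1.24) and last KRP1 (0.983 ± 0.315), each of these 2 below its upper neighbour in 3 of 3 libraries. Of the 10 genes KRP2 therefore ranked 2 on day 12 and 5 on day 7, both places being kept against its lower neighbour in 3 of 3 libraries.

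The inhibitors were set beside the cyclin genes and CDKA;1, again as ratios of TPM within a library. The KRP sum over the sum of 14 A- and B-type cyclin genes was 0.283, 0.276 and 0.320 on day 12, against 0.183, 0.191 and 0.207 on day 7. Over the sum of 10 D-type cyclin genes it was 0.343, 0.326 and 0.344 on day 12, against 0.306, 0.291 and 0.306 on day 7. Both ratios were higher on day 12 in every library, the first by more. The KRP sum itself overlapped between the days, while 13 of the 14 A- and B-type cyclin genes were called lower on day 12. The first ratio is therefore no sign of more KRP transcript. Over CDKA;1, the main kinase of the cycle, the KRP sum was lower on day 12, with 1.07, 0.835 and 1.09, against 1.29, 1.21 and 1.43 on day 7. CDKA;1 itself had 105.5 ± 10.96 CPM on day 12 and 87.8 ± 0.811 CPM on day 7 (SD, n = 3 each; adjusted p = 0.0688 by edgeR). The sum of SIM, LGO and SMR4 over the A- and B-type cyclins was 0.0864 ± 0.0131 on day 12 and 0.0386 ± 0.0080 on day 7, with no overlap. Over CDKA;1 it was 0.293 ± 0.0437 on day 12 and 0.260 ± 0.0550 on day 7, and the days overlapped.

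**Figure D4:**
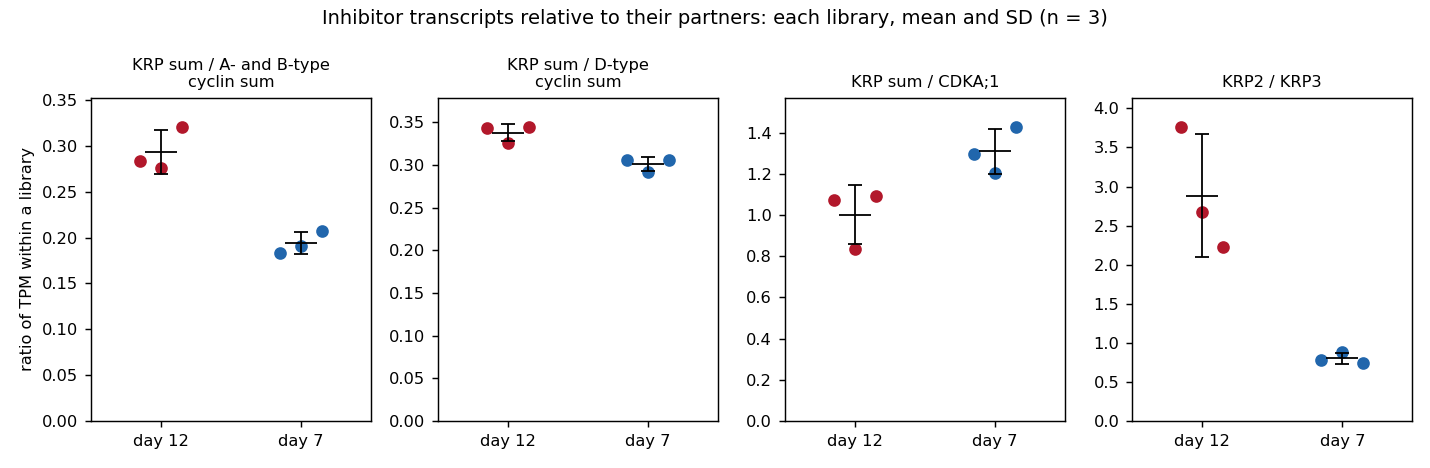
Ratios of TPM within each library (vertical axes, from 0): the KRP sum over the A- and B-type cyclin sum, over the D-type cyclin sum and over CDKA;1, and KRP2 over KRP3. Red points are day 12 and blue points day 7 libraries, with mean and SD. The days do not overlap in any panel, and the ratio to CDKA;1 is the one that is lower on day 12. In the panel of KRP2 over KRP3 the separation follows from the opposite calls of those genes.

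The genes around the inhibitors were counted by list, in the same fit, where 12.5% of all genes tested were called lower. Of 14 A- and B-type cyclin genes 13 fell and the other, CYCA2;1, was not called (adjusted p = 0.131), with a list median of -0.74. CYCB1;1, a cyclin made at the entry into mitosis, had 20.6 ± 1.3 CPM on day 12 and 39.9 ± 0.871 CPM on day 7. CYCB1;3 and CYCB2;3, cyclins of the same phase, had log2 changes of -0.86 ± 0.11 (SE, adjusted p = 0.00228) and -0.79 ± 0.10 (0.00236). Of 12 kinase and kinase partner genes 7 fell and 5 were not called, with a median of -0.50. The mitotic kinases CDKB1;1 and CDKB1;2 fell by 0.90 ± 0.11 (adjusted p = 0.00207) and 0.88 ± 0.12 (0.00281), and the kinase subunit gene CKS2 fell by 0.62 ± 0.11 (0.00462). On log2(TPM + 1) 1 of these cyclins and 0 of these kinase genes passed by limma. There 12 of the cyclins and 4 of the kinase genes had an unadjusted p under 0.05. On TPM rescaled without rRNA and organelle loci limma called 12 of the cyclins and 8 of the kinase genes.

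Fewer of the genes in the other lists were called. Over all genes tested 25.1% were called, 12.7% higher and 12.5% lower. The counts below are near or under that share and are not read as results about the lists. Of 9 tested D-type cyclin genes CYCD3;3 fell, with a log2 change of -0.67 ± 0.19 (SE, edgeR adjusted p = 0.0364), and the list median was -0.12. Leaving out day 12 replicate 1 (0.111) or 2 (0.105), or day 7 replicate 1 (0.0683) or 3 (0.0862), ended the call. In the fit blocked by replicate number CYCD3;2 fell as well (adjusted p = 0.0188). Of 7 E2F, DP and RBR1 genes, which govern entry into S phase, DEL1 fell by 0.53 ± 0.13 (adjusted p = 0.0173), with a median of -0.28. DEL1 encodes an atypical E2F factor known to delay endoreduplication, and its call ended on leaving out day 12 replicate 1 (0.0626) or day 7 replicate 1 (0.0533) or 2 (0.0616).

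Among 7 ubiquitin ligase genes RKP rose and CCS52B fell, with a median of 0.07, against 25.1% of all genes tested called. RKP, a ligase known to act on the KRP1 protein, had 67.5 ± 7.55 CPM on day 12 and 47.4 ± 2.73 CPM on day 7 (log2 change 0.52 ± 0.11 (SE), adjusted p = 0.00992). CCS52B, an activator of the ligase that destroys mitotic cyclins, had 69.2 ± 12.3 CPM on day 12 and 104 ± 3.08 CPM on day 7 (-0.58 ± 0.12, adjusted p = 0.0107). FBL17, the F-box protein that marks several KRP proteins for breakdown, was not called and had 113 ± 9.50 CPM on day 12 and 123.3 ± 10.5 CPM on day 7; it was picked for its role, outside the rule for named genes. Of 9 transcription factor genes linked to these inhibitors or to mitosis, AT1G63100, a GRAS family gene, fell by 0.80 ± 0.16 (adjusted p = 0.00992). MYB3R4, an activator of mitotic genes, fell by 0.52 ± 0.12 (adjusted p = 0.0166), and not without day 7 replicate 1 (0.0612) or 2 (0.0634). The list median was -0.07, and over all genes tested 12.5% were called lower. In the fit blocked by replicate number ATML1, an epidermal factor, also fell (0.0215) and GTL1, a repressor of ploidy-dependent growth in trichomes, rose (0.0266), which gave 4 called genes in place of 2.

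A further list of 11 SIAMESE-related loci was examined, of which the reference annotates 8 as inhibitors or SMR genes. Of the 10 tested, AT1G10690, annotated as a cyclin-dependent kinase inhibitor, rose, against 12.7% of all genes tested called higher. It had 5.10, 8.31 and 6.56 CPM on day 12 against 3.27, 3.77 and 2.88 CPM on day 7, with no overlap. The log2 change was 1.01 ± 0.28 (SE, adjusted p = 0.0296). Leaving out day 12 replicate 2 (0.106) or 3 (0.0555) ended the call, as did leaving out day 7 replicate 1 (0.0880), 2 (0.0579) or 3 (0.0915). The list median was -0.17. Of the 10 genes 4 stood wholly lower on day 12, against 22.5% of all genes tested, and these 4 were not called. They are named here after their values were seen. AT2G28870 had 13.0 ± 0.938 CPM on day 12 and 17.6 ± 2.57 CPM on day 7 (adjusted p = 0.0667), and AT1G51355 had 1.02 ± 0.233 CPM on day 12 and 2.41 ± 0.978 CPM on day 7 (0.0692). SMR7, known from the response to DNA damage, had 1.28 ± 0.507 CPM on day 12 and 2.62 ± 0.319 CPM on day 7 (0.0842), and AT5G59360 had 1.46 ± 0.937 CPM on day 12 and 3.18 ± 0.122 CPM on day 7 (0.134).

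The genes whose levels ran most like those of each called inhibitor were found by Pearson's r of log2 CPM over the 6 libraries, among 15375 genes with at least 5 CPM for KRP1. All such values share the split between the days and are a description only. KRP1 ran most like PHO2 (AT2G33770, r = 0.999), with 768 ± 169 CPM on day 12 and 192 ± 21.9 CPM on day 7, then MEKK1 (AT4G08500, r = 0.999) and ML2 (AT2G42890, r = 0.998). For KRP2 they were AT1G72820 (r = 0.999), AT5G18610 (r = 0.997) and OZF1 (AT2G19810, r = 0.996). For KRP3 they were AT4G26960 (r = 0.997), AT3G55490 (r = 0.996) and AT2G23940 (r = 0.996). Values above 0.95 were common, with 673 genes for KRP1, 311 for KRP2 and 241 for KRP3.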

How the data were processed

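Total RNA was made into TruSeq libraries, per the labels' protocols. The authors deposited raw counts per locus and, in a second table, deposited TPM values with the same total in each library. The tools named, with no roles, are RSEM 1.3.1 and STAR 2.7.10a, and the build TAIR10, per the submitters' processing notes. How strand and multiply mapped reads were handled is not given in the sources used here. Columns were matched to samples by name. Names came from RefSeq TAIR10.1, which matched 36629 loci, and no coordinates or sequences are printed because the build names differ.

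Counts were fitted with edgeR 4.0.16 in R 4.3.3, using filterByExpr (18364 genes), TMM factors (0.960 to 1.04) and robust quasi-likelihood tests with day as the only term, after the fit was tested on simulated data. A standard error is the log2 change divided by the root of F. Beside the alternatives, DESeq2 1.42.0 and limma 3.58.1 were run, limma on TPM (minimum mean 1 TPM). Replicates were 3 per day, and no label says which plants or plates each came from, so p-values measure the spread between these samples. Replicate pairs all differed by more than counting noise. A count of 3 is 0.288 to 0.609 CPM in a day 12 library and 0.279 to 0.405 CPM in a day 7 library. Libraries of the same number were alike in their deviations from the day mean (correlation 0.153, 0.160 and 0.236, against -0.164 to 0.0042 for other pairs), so a replicate block was also fitted.

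The members and gene lists were chosen with earlier results of these data known, and the ratios and summed CPM were added after the values were seen. Beside the members, the text names the strongest calls in each list (at most 3, by adjusted p, plus the strongest in the opposite direction) and the 3 genes of most similar pattern, and says where a gene was picked outside that rule. The loci marking root-type callus, leaf mesophyll and trichomes were used as marker lists.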

Additional observations from a re-analysis of the deposited data

How the results depend on the processing

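KRP1, KRP2 and KRP3 kept their direction under all 17 alternatives, with log2 changes of 1.11 to 2.02, 0.66 to 0.86 and -1.27 to -0.83. Alternatives with the sign of the log2 change turned were KRP4 on log2(TPM + 1) (0.043), on log2(TPM + 0.1) (0.044) and on rescaled TPM (0.013), and KRP6 without day 7 replicate 1; neither gene was called. Over the libraries left out, the KRP6 change was -0.0012 to 0.44. Leaving out 1 library gave 1 to 3 called members (1 to 2 higher, 0 to 1 lower), and 2529 to 4342 called genes in all, 1281 to 2286 higher and 1248 to 2056 lower. It gave 0 to 1 of the further SIAMESE-related genes, 0 to 2 D-type cyclins, 0 to 1 of the E2F group and 1 to 3 upstream regulators, with 3 to 5 mesophyll, 0 to 2 root-type callus and 0 trichome markers. By limma on log2(TPM + 1) 1080 genes were called (796 higher, 284 lower, against 2324 and 2292 by edgeR), with 1 member (SIM; 1 higher, 0 lower), 1 A- or B-type cyclin, 0 kinase genes, 0 in each other list of cell cycle genes and regulators, 4 mesophyll, 1 root-type callus and 0 trichome markers. Unadjusted p under 0.05 was reached there by 5 members, 12 A- or B-type cyclins, 4 kinase, 3 further SIAMESE-related, 1 D-type cyclin, 3 ubiquitin ligase, 1 upstream and 0 E2F genes. With log2(TPM + 0.1) the calls were 1083 (802 higher, 281 lower), with the same counts for the members and cell cycle lists, and 5 mesophyll, 0 root-type callus and 0 trichome markers; 2 root-type and 0 trichome markers had an unadjusted p under 0.05. On TPM rescaled without rRNA and organelle loci 5 members were called, 2 of them lower, with 0 D-type cyclins and 1 upstream regulator. In that setting 3840 genes were called in all, with 12 A- or B-type cyclins and 8 kinase genes. With upper-quartile factors, library sizes alone or limma-voom 2 members were lower and 2 D-type cyclins were called. The replicate block gave 2 D-type cyclins and 4 upstream regulators and changed no member's call; it gave 3 root-type callus markers in place of 2. Shares by counts in place of TPM moved by over 1 SD for 10 of 20 values. KRP1, at 5 to 38 counts a library, and SMR4, at 9 to 31, rest on few counts. For SMR4 the ratio of pooled counts, day 12 over day 7, was 0.609, with a 95% counting interval of 0.395 to 0.926. That interval covers counting error only, not the spread between replicates.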
